A study of Mus musculus with 6 samples.

Results

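The genes of glycolysis, lactate transport and glycogen metabolism were described in adult mouse tibialis anterior, the fast-fibre muscle that runs along the shin. RNA sequencing compared 3 wild-type (WT) muscles with 3 muscles of Dock3 KO mice, in which Dock3, a guanine nucleotide exchange factor that activates the small GTPase Rac, is knocked out. The labels title the WT samples C57 and number them 1, 3 and 4, number the Dock3 KO samples 1, 2 and 3, and say no more of the strain, the Dock3 allele, or whether the muscles came from separate animals. Total RNA was depleted of ribosomal RNA and made into stranded libraries. A list of 37 gene symbols was looked up among the 54393 genes of the deposited table, and all 37 were found, in 38 rows. Values are the authors' normalized counts, which put the 6 muscles on a common scale. Of the 38 rows, 37 had a mean of at least 10 over the 6 muscles and were tested with the other genes of the table, 16031 in all. The remaining row is a second, short gene model that also bears the symbol Aldoa, with a mean of 8.88. The tested member with the lowest mean was Aldoc, at 24.0.

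Glycolysis splits glucose into pyruvate in the cytosol and yields ATP without oxygen. In fast muscle fibres, which make up most of the tibialis anterior, much of the pyruvate becomes lactate and leaves the fibre. Glycogen is the fibre's own store of glucose: glycogenin and glycogen synthase build it, phosphorylase breaks it down, and targeting subunits bring protein phosphatase 1 to the particle to switch both enzymes. Many steps have a muscle isozyme beside one or more isozymes that prevail in liver, brain or other cells.

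The labels were first checked on Dock3 itself. Its normalized counts were 169, 161 and 118 in the WT muscles and 22.4, 1.78 and 1.54 in the Dock3 KO muscles (in order of replicate number, as in all such lists below), a log2 difference of -4.76 ± 0.752 SE (limma adjusted p 0.0140, Benjamini-Hochberg). The call was lost without WT replicate 1, 3 or 4 or without Dock3 KO replicate 2, with log2 differences of -4.92 to -4.27 and limma adjusted p of 0.0591 to 0.0771. It was also lost with log2 Gm42418 as a covariate (-5.94, limma adjusted p 0.0836) and with a prior variance that does not follow expression (-4.76, limma adjusted p 0.123). Normalized counts summed to between 23520223 and 33393950 per muscle, from approximately 21744464 to 32358055 reads, an estimate from the lowest values. A pair of abundant transcripts, Gm42418 and Lars2, together took 3.00% to 3.51% of the sum in WT, but 17.9%, 20.3% and 3.64% in Dock3 KO replicates 1, 2 and 3. Markers of muscle fibres were abundant in every muscle, and 0 of 8 passed the test.

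None of the 37 tested members passed the threshold of an adjusted p of 0.05, against 165 of all 16031 genes, or 1.03% (limma, Benjamini-Hochberg). Higher calls made up 0.443% of all genes and lower calls 0.586%. At an unadjusted p under 0.05 (limma), 2 members were found, Pygl and Ppp1r3c, against 10.5% of all genes. The groups did not overlap for 3 members, Pygl, Pgm1 and Pgm2, which is 8.11%, against 16.2% of all genes. Log2 differences, on the scale of log2(normalized count + 1), ran from -1.67 to 0.73 with a median of -0.04, beside -0.01 for all genes. They were above 0 for 16 of 37 members and for 49% of all genes. The median size of the difference, without sign, was 0.12 for members and 0.20 for all genes. Level matters here: with a mean of at least 1000, that size was 0.11 for 27 members and 0.13 for all 2367 genes. At that level the median log2 difference was -0.01 for members and 0.04 for all genes. It was above 0 for 12 of the 27 and for 1393 of the 2367.

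These data also bound how large a change could have gone unseen. For 32 of the 37 members the 95% confidence interval lay within a 2-fold change either way, against 64.1% of all genes. For 24 it lay within 1.5-fold, against 33.7% of all genes. Most members are abundant, and abundant genes have narrow intervals: of 27 members with a mean of at least 1000, 26 (96.3%) lay within 2-fold, beside 95.4% of the 2367 genes at that level. Of the 37 members, 19 overlap another annotated gene of the table, and in 4 of them, Pfkp, Phkg1, Pfkfb1 and Gys1, that gene's mean was over 5% of the member's. For Phkg1 that gene, Chchd2, is on the same strand, with 94.0% of the mean of Phkg1. For Pfkp, Pfkfb1 and Gys1 it is on the opposite strand. Reads of the overlap may count for either gene, on opposite strands only if strand was not used in counting, which is not given. The 5 members with wider intervals were Pfkl, Pfkfb3, Aldoc, Pygl and Ppp1r3d. Multiplying the values so that every muscle has the same total shifts all genes by -0.28 and the members' median to -0.31, and doing so without Gm42418 and Lars2 shifts them by -0.11 and to -0.14. Relative to all genes, the members' median stood at -0.03 in the authors' scaling and in both of these. Such multiplication moves all genes of a muscle together, so it could hardly change that gap. The gap was -0.14 after quantile normalization and -0.15 with log2 Gm42418 as a covariate.

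**Figure D1:**
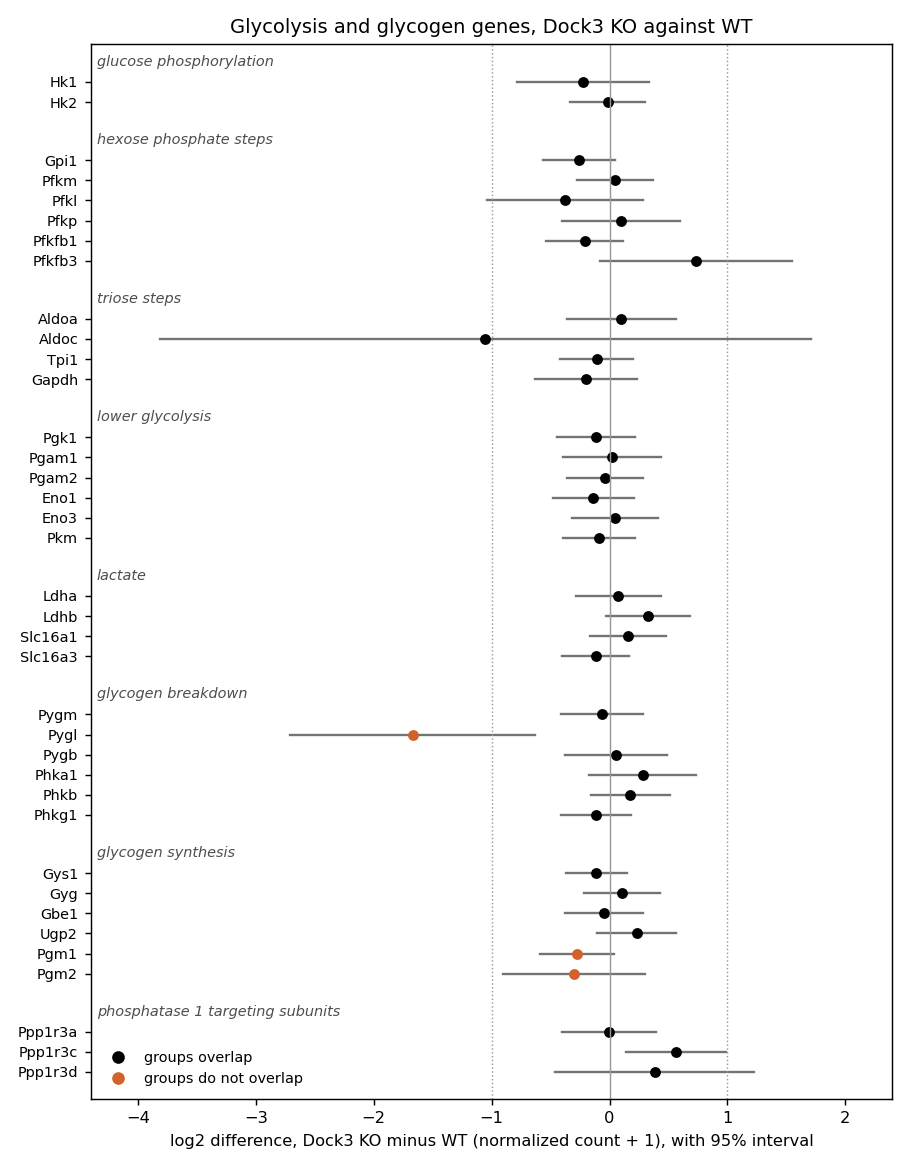
Log2 difference between Dock3 KO and WT for each of the 37 tested members, grouped by role, with points for the estimate and bars for its 95% confidence interval (limma, n = 3 muscles per group). Dotted lines mark a 2-fold change; the intervals of Pfkl, Pfkfb3, Aldoc, Pygl and Ppp1r3d reach past them, and 3 members (orange) have groups that do not overlap.

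Hexokinase phosphorylates glucose once it has entered the fibre. Hk2, the insulin-responsive muscle hexokinase, had 6296, 6109 and 5364 normalized counts in the WT muscles, and 4956, 6140 and 6594 in the Dock3 KO muscles, so the groups overlapped fully. Its log2 difference was -0.01, with a 95% interval of -0.33 to 0.30 (limma). Hk1, the form found in most tissues, stood at 211 ± 15.9 in WT and 188 ± 64.9 in Dock3 KO (mean ± SD, n = 3 each). Per kilobase of transcript, Hk2 was 20.1 to 38.1 times as high as Hk1 in the 6 muscles, and the highest ratio belonged to Dock3 KO replicate 2.

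The next steps turn glucose 6-phosphate into fructose bisphosphate. Of the 6 members here, 3 had a log2 difference above 0, and the median was -0.08. Pfkm, the muscle form of phosphofructokinase and the step that commits sugar to glycolysis, had 44171, 44286 and 42473 in the WT muscles, and 42027, 49689 and 43899 in the Dock3 KO muscles. The WT values lay within the span of the Dock3 KO values, and the log2 difference was 0.05, with an interval of -0.28 to 0.37. Pfkl and Pfkp, the liver and platelet forms, were far lower: per kilobase, Pfkm stood 309 to 824 times above Pfkl and 245 to 368 times above Pfkp.

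Pfkfb3 and Pfkfb1 encode bifunctional enzymes that make and remove fructose 2,6-bisphosphate, the strongest activator of phosphofructokinase. Pfkfb3 (chromosome 2, 11471433 to 11554077, minus strand) had the highest estimate among the members. It had 2478, 3070 and 1499 normalized counts in the WT muscles, and 6370, 3830 and 2151 in the Dock3 KO muscles, where replicates 1 and 2 lay above every WT muscle and replicate 3 lay among them. Those 2 muscles are the ones with the large share of Gm42418 and Lars2, and the cause of their higher values was not tested. The log2 difference was 0.73 ± 0.364 SE, with an interval of -0.08 to 1.55 (limma adjusted p 0.533). Over the 20 alternatives, with log2 Gm42418 as a covariate among them, it ran from -0.14 to 1.13. Without Dock3 KO replicates 1 and 2 it was -0.07, with only replicate 3 left in that group. Leaving out the highest values of a group lowers its difference in any case. Pfkfb1 stood at 640 ± 79.8 in WT and 551 ± 39.5 in Dock3 KO (mean ± SD, n = 3 each; limma adjusted p 0.696).

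Gpi1, which interconverts glucose and fructose 6-phosphate (chromosome 7, 34201330 to 34230336, minus strand), had 11574, 10201 and 12961 in the WT muscles, and 10384, 9597 and 8980 in the Dock3 KO muscles. The groups overlapped through WT replicate 3, and the log2 difference was -0.26, with an interval of -0.56 to 0.05 (limma adjusted p 0.570). Gpi1 has a processed pseudogene, Gm1840, a copy without introns on chromosome 8 (5639580 to 5641011, plus strand, GRCm38). It differs from the Gpi1 transcript at 20 of 1432 aligned bases, all in the coding sequence. The pair is shown over 60 bases that include 2 of the differences, in capitals, because reads without such a base fit both genes. The first sequence covers coding positions 169 to 228 of Gpi1, and the second chromosome 8 from 5639734 to 5639793.
Gpi1: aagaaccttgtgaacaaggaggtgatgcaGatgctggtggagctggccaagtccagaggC
Gm1840: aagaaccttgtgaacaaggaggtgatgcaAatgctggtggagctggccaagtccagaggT

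Gm1840 passed the test although Gpi1 did not. It had 78.6, 71.4 and 70.3 normalized counts in the WT muscles, and 4.25, 6.12 and 1.56 in the Dock3 KO muscles, so that every Dock3 KO muscle lay far below every WT muscle. The means were 73.4 ± 4.51 and 3.98 ± 2.29 (SD, n = 3 each). Its log2 difference was -4.02 ± 0.495 SE (limma adjusted p 0.00298), and it was called in 17 of the 17 alternatives that tested it. Its mean was 0.364% of that of Gpi1, so adding both left the difference of Gpi1 at -0.27 (limma adjusted p 0.545). The submitters' notes name Salmon 0.12.0. How it divided reads that fit both genes is not given in the sources used here, so the values of Gm1840 are uncertain.

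Aldolase, triose phosphate isomerase and glyceraldehyde phosphate dehydrogenase handle the sugars once they are split. Aldoa, the muscle aldolase (chromosome 7, 126795234 to 126800751, minus strand), had the highest level per kilobase of all members. It had 169592, 180855 and 173484 normalized counts in the WT muscles, and 220335, 189984 and 156984 in the Dock3 KO muscles. Dock3 KO muscles lay on both sides of WT, and the log2 difference was 0.10, with an interval of -0.36 to 0.56. Aldoc, the brain form, was low and uneven, from 1.57 to 106 in WT and from 2.49 to 19.4 in Dock3 KO, and its interval of -3.82 to 1.71 bounds little. Tpi1 had 21090, 23175 and 22203 in the WT muscles, and 22298, 21551 and 18026 in the Dock3 KO muscles, a log2 difference of -0.11 with groups that overlap.

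Gapdh, often used as a reference gene (chromosome 6, 125161715 to 125166467, minus strand), had 65246, 81865 and 86331 in the WT muscles, and 78956, 69655 and 55378 in the Dock3 KO muscles. WT replicate 1 lay within the Dock3 KO values, and the log2 difference was -0.20 ± 0.195 SE (limma adjusted p 0.801). Of all members it had the most near-identical copies, 73, of which 60 had a mean of at least 10. The processed pseudogene Gm7336 (chromosome 7, 51746647 to 51747878, plus strand, GRCm38) differs from the Gapdh transcript at 1 of 1230 aligned bases and at 0 of 1002 coding bases. The start of the coding sequence, positions 1 to 60, is shown beside chromosome 7 from 51746697 to 51746756 because no base tells them apart.
Gapdh: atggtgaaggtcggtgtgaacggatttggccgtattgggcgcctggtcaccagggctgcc
Gm7336: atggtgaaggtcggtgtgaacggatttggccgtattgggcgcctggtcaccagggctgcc

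Gm7336 had 33454, 25787 and 15352 normalized counts in the WT muscles, and 15167, 12763 and 21719 in the Dock3 KO muscles. As a share of Gapdh this is 51.3%, 31.5% and 17.8% in WT and 19.2%, 18.3% and 39.2% in Dock3 KO. In each group the muscle with the lowest Gapdh had the largest share in the pseudogene. Adding Gapdh and all its copies gave 100926, 110177 and 103965 in WT and 96340, 86113 and 78948 in Dock3 KO. The SD of the WT group was then 4716 in place of 11111, and the groups no longer overlapped. The log2 difference of the sum was -0.27 ± 0.169 SE, with an interval of -0.65 to 0.10 (limma adjusted p 0.646). Of the 61 copies of all members that were tested, 1 passed the test, Gm1840. Their median log2 difference was -0.37, and 14 (22.95%) had groups that do not overlap, against 16.2% of all genes. In all, 9 of the 37 members had such copies, and outside Gapdh the copies came to at most 0.447% of their member.

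**Figure D2:**
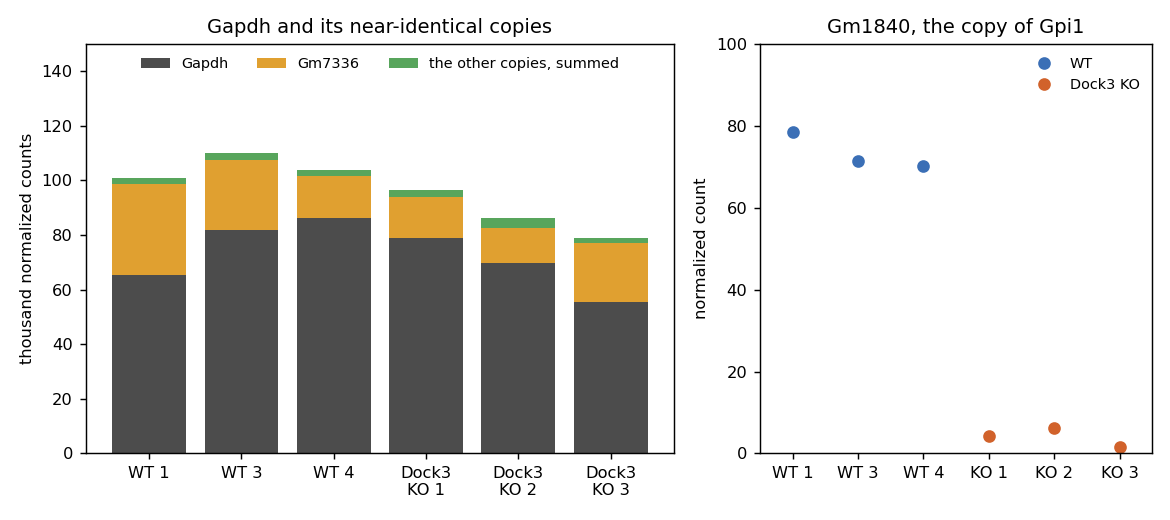
Left, stacked bars of the normalized counts (in units of 1000) of Gapdh, its copy Gm7336 and its other copies summed, in each muscle; right, the normalized count of Gm1840, the copy of Gpi1, with 1 point per muscle. The stacks end between 100926 and 110177 in WT and between 78948 and 96340 in Dock3 KO, and Gm1840 lies at 70.3 to 78.6 in WT and at 1.56 to 6.12 in Dock3 KO.

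Lower glycolysis, from 1,3-bisphosphoglycerate to pyruvate, was the most closely bounded group. All 6 of its members had intervals within 1.5-fold, and their median log2 difference was -0.06. Eno3, the muscle enolase, had 47191, 50070 and 51040 in the WT muscles, and 58851, 51520 and 43766 in the Dock3 KO muscles, a log2 difference of 0.05 (interval -0.32 to 0.41). Pgam2, the muscle phosphoglycerate mutase, had 14760, 16660 and 17767 in the WT muscles, and 18222, 14354 and 15414 in the Dock3 KO muscles (log2 difference -0.04). In both genes the Dock3 KO values span the WT values. Pkm, the pyruvate kinase of muscle, had 25246, 24269 and 24727 in the WT muscles, and 23865, 25409 and 20849 in the Dock3 KO muscles (log2 difference -0.09), and here too the groups overlapped. Pgk1, an enzyme of the pathway that makes ATP, had 10041, 9631 and 10220 in the WT muscles, and 9513, 10754 and 7600 in the Dock3 KO muscles (log2 difference -0.12). The widely expressed isozymes gave 0.02 for Pgam1 and -0.14 for Eno1. Per kilobase, Pgam2 was 73.5 to 103 times as high as Pgam1, and Eno3 43.4 to 61.5 times as high as Eno1.

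Lactate dehydrogenase turns pyruvate into lactate and back, and monocarboxylate transporters carry lactate across the membrane. Ldha, which encodes the subunit that prevails in fast muscle, had 26126, 29749 and 26695 in the WT muscles, and 33155, 30643 and 23912 in the Dock3 KO muscles, with a log2 difference of 0.08 (interval -0.28 to 0.44). Ldhb, which encodes the subunit of heart and oxidative fibres, had 1191, 1817 and 1369 in the WT muscles, and 1712, 1878 and 1819 in the Dock3 KO muscles. The Dock3 KO values sit close together at the top of the range, but WT replicate 3 lies among them. Its log2 difference was 0.33 ± 0.161 SE, with an interval of -0.03 to 0.69 (limma adjusted p 0.530). WT replicate 3 also had the highest Myh2, a myosin of oxidative fibres, of its group, at 14688, beside 7409 and 7831 in WT replicates 1 and 4 and 11107, 14496 and 16582 in Dock3 KO. Myh2 is 1 of 8 listed genes of oxidative and slow fibres, of which only 4 had a log2 difference above 0 (lowest -0.31). The part of fibre type in the values of Ldhb was not tested. The ratio of Ldha to Ldhb per kilobase was 15.8, 11.8 and 14.0 in the WT muscles and 13.9, 11.7 and 9.445 in the Dock3 KO muscles, and the groups overlapped.

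Slc16a3 encodes the transporter that exports lactate from fast fibres, and Slc16a1 the one that oxidative fibres use for uptake. Slc16a3 had 3975, 3674 and 3360 in the WT muscles, and 3567, 3557 and 3030 in the Dock3 KO muscles, a log2 difference of -0.12. Slc16a1 stood at 1071 ± 36.4 in WT and 1203 ± 190 in Dock3 KO (mean ± SD, n = 3 each), a difference of 0.16. Their ratio per kilobase was 3.845, 3.37 and 3.28 in the WT muscles and 3.69, 2.69 and 2.43 in the Dock3 KO muscles, again with overlap, and was the smallest of the 10 ratios computed.

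**Figure D3:**
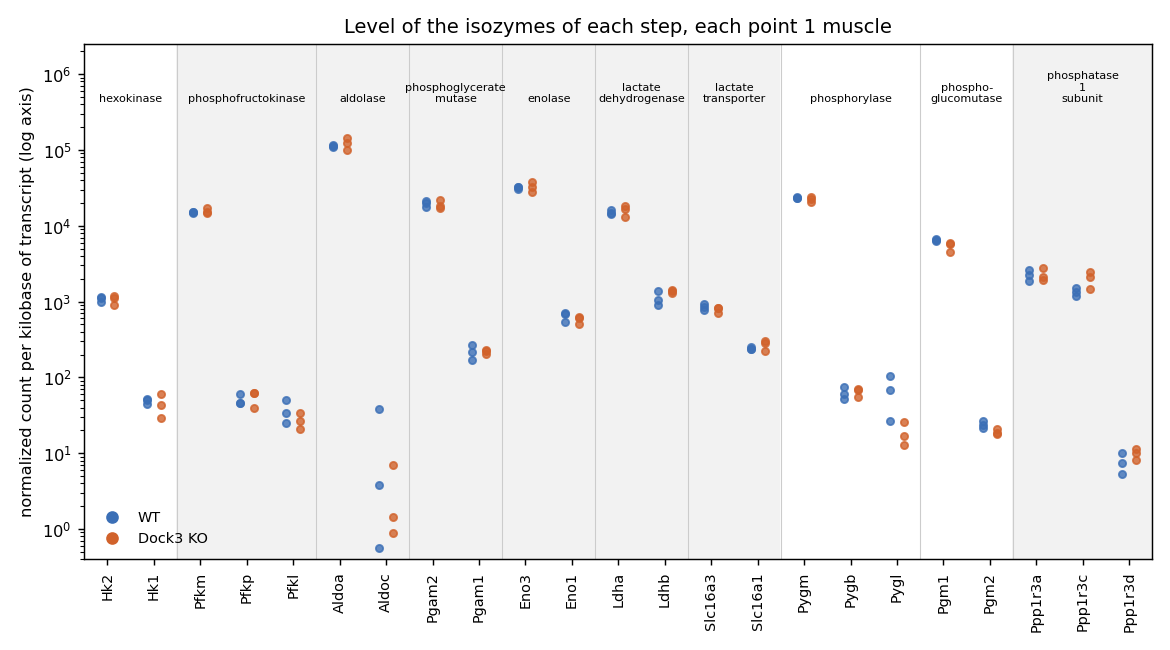
Normalized count per kilobase of the longest protein-coding transcript (log axis) for the isozymes of each step, with 1 point per muscle, WT in blue and Dock3 KO in orange. In the 10 pairs compared as ratios the first form named lies above the other in all 6 muscles, by at least 2.43 times for Slc16a3 over Slc16a1 and at least 2879 times for Aldoa over Aldoc; Ppp1r3a and Ppp1r3c lie close together, and Ppp1r3c is the higher in Dock3 KO replicate 1.

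For the order of isozymes by level per kilobase, the length of the longest protein-coding transcript and the length of all merged exons gave the same order at 10 of 11 steps. The exception was Pfkp and Pfkl, which changed places, so these neighbours cannot be ranked. None of 10 ratios between isozymes had groups that do not overlap. Across steps, the levels per kilobase in WT ran from 112746 normalized counts per kilobase for Aldoa through 54799 for Gapdh, 31607 for Eno3, 23388 for Pygm and 19519 for Pgam2 to 15164 for Ldha and 15159 for Pfkm, with Hk2 at 1074. In Dock3 KO the same genes stood at 122079, 47885, 32851, 22455, 19044, 16108, 15702 and 1070 per kilobase, in the same order. By the longest transcript, the neighbours Ldha and Pfkm differed by less than the spread between muscles. The order across steps depends on the length used. By merged exons, the mean level over the 6 muscles was 17640 for Gapdh, below 28986 for Eno3, 20471 for Pygm and 19281 for Pgam2. Ldha then stood at 8574 and Pfkm at 13301.

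Phosphorylase releases glucose from glycogen and is switched on by phosphorylase kinase. Of the 6 members here, 3 had a log2 difference above 0, and the median was -0.00. Pygm, the muscle phosphorylase, which is lost in McArdle disease, had 67652, 66096 and 67905 in the WT muscles, and 65784, 69407 and 58413 in the Dock3 KO muscles. Its log2 difference was -0.06, with an interval of -0.41 to 0.29. Phka1, Phkb and Phkg1, which encode subunits of phosphorylase kinase, gave 0.28, 0.18 and -0.11. In Phka1 and Phkb the highest Dock3 KO value was that of replicate 2, at 17050 and 8357, and the other Dock3 KO muscles lay within the WT range.

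Pygl, the liver form of phosphorylase, had the lowest estimate and the smallest p of the members. It had 314, 78.5 and 205 normalized counts in the WT muscles, and 51.1, 38.1 and 77.9 in the Dock3 KO muscles. All Dock3 KO values lay below all WT values, but WT replicate 3 and Dock3 KO replicate 3 nearly touched. The means were 199 ± 118 and 55.7 ± 20.3 (SD, n = 3 each), and the log2 difference was -1.67 ± 0.465 SE, with an interval of -2.71 to -0.63. The unadjusted p was 0.00504 and the adjusted p 0.187 (limma, Benjamini-Hochberg), so the difference did not pass. Without WT replicate 3 it was -2.23 with an adjusted p of 0.0275 (limma), the only call of any member in any of the alternatives run. WT replicate 3 also stands apart in smooth muscle markers, whose 4 genes summed to 4839 there and to 1114 to 1414 in the other 5 muscles.

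The gene is at chromosome 12, 70190811 to 70231488, minus strand, and overlaps a noncoding gene on the other strand, F730035M05Rik, whose mean was 0.634. In whole muscle, fewer cells of a type and less RNA per cell cannot be told apart. The 5 macrophage markers summed to 2497 to 2810 in WT and to 2163 to 2371 in Dock3 KO, so these sums did not overlap either. Of the 5, 0 passed the test and none was at 0. Taken singly, only 1 of the 5 (20.0%) had groups that do not overlap, against 16.2% of all genes. The median log2 difference was -0.26, and 1 of the 5 was above 0, at 0.13. The part of these markers in the values of Pygl was not tested. Pygb, the brain form, gave 0.05. Per kilobase, Pygm was 310 to 456 times as high as Pygb. Against Pygl it was 482 ± 347 times as high in WT and 1339 ± 559 times in Dock3 KO (mean ± SD, n = 3 each), and these ratios overlapped.

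Glycogen is built from UDP-glucose on a primer made by glycogenin. Gys1, the muscle glycogen synthase, had 5916, 5576 and 5831 in the WT muscles, and 5139, 5192 and 5727 in the Dock3 KO muscles, where replicate 3 lay among the WT values. The log2 difference was -0.11, with an interval of -0.37 to 0.15. Gyg, the glycogenin, gave 0.10, and Gbe1, the branching enzyme, -0.05. Ugp2, which makes UDP-glucose, stood at 9939 ± 1284 in WT and 11647 ± 1459 in Dock3 KO (mean ± SD, n = 3 each), with a log2 change of 0.23 (limma adjusted p 0.670).

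Both phosphoglucomutases had lower values in every Dock3 KO muscle than in any WT muscle, and neither passed the test. Pgm1, which joins glycogen to glycolysis by interconverting glucose 1-phosphate and glucose 6-phosphate (chromosome 4, 99929414 to 99987294, plus strand), had 15685, 16198 and 17142 in the WT muscles, and 14816, 14487 and 11482 in the Dock3 KO muscles. The means were 16342 ± 739 and 13595 ± 1837 (SD, n = 3 each), and the log2 difference was -0.27 ± 0.142 SE (limma adjusted p 0.558). Pgm2, which encodes a related mutase, had 54.99, 50.3 and 62.8 in the WT muscles, and 44.1, 42.1 and 49.6 in the Dock3 KO muscles, a log2 difference of -0.30 with an interval of -0.90 to 0.30 (limma adjusted p 0.777). In Pgm2, WT replicate 3 and Dock3 KO replicate 3 nearly touched.

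The targeting subunits of protein phosphatase 1 direct it to glycogen, where it activates synthase and inactivates phosphorylase. Ppp1r3a, the main subunit of striated muscle, had 18049, 13155 and 15737 in the WT muscles, and 13234, 19316 and 14611 in the Dock3 KO muscles. The groups overlapped and the means were 15647 and 15720, with an interval of -0.40 to 0.40 for the log2 difference. Ppp1r3c, also called protein targeting to glycogen (chromosome 19, 36731731 to 36736653, minus strand), had 4069, 3183 and 3653 in the WT muscles, and 5743, 6660 and 3996 in the Dock3 KO muscles. Replicates 1 and 2 of Dock3 KO lay above every WT muscle, and replicate 3 lay just under WT replicate 1. The log2 difference was 0.56 ± 0.188 SE, with an interval of 0.14 to 0.98, with an unadjusted p of 0.0137 and an adjusted p of 0.292 (limma, Benjamini-Hochberg), so it did not pass. As for Pfkfb3, the high muscles are those with the large share of Gm42418 and Lars2, and the cause of their higher values was not tested. Without these muscles the difference was 0.14, with only Dock3 KO replicate 3 left in that group. Over the 20 alternatives, with log2 Gm42418 as a covariate among them, the difference ran from 0.07 to 0.77. Leaving out the highest values of a group lowers the difference here too in any case. Ppp1r3d was low, from 17.5 to 36.6 in the 6 muscles, with a log2 difference of 0.38 and an interval of -0.46 to 1.23.

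**Figure D4:**
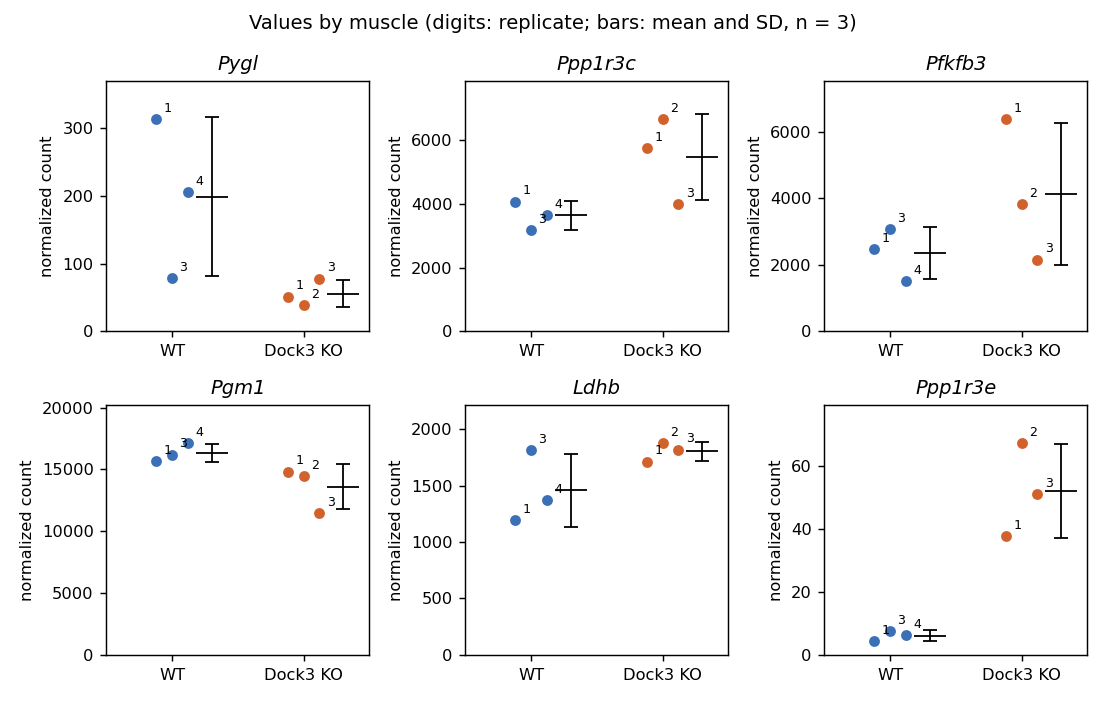
Normalized count in each muscle for 5 members, Pygl, Ppp1r3c, Pfkfb3, Pgm1 and Ldhb, and for Ppp1r3e, another phosphatase subunit, with digits for replicate numbers and bars for the mean and SD (n = 3 per group). The groups are apart for Pygl, Pgm1 and Ppp1r3e and overlap for the other 3 genes; in Pfkfb3 and Ppp1r3c, Dock3 KO replicate 3 lies within the WT range.

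A further 45 genes of glycolysis, gluconeogenesis and glycogen metabolism were looked up, of which 39 were tested, 1 was higher in Dock3 KO and 0 were lower. The median log2 difference of the 39 was -0.00. An unadjusted p under 0.05 (limma) was found for 8, against 10.5% of all genes. Groups did not overlap for 9 (23.1%), against 16.2% of all genes. The called gene, Ppp1r3e (chromosome 14, 54872669 to 54877550, minus strand), encodes another glycogen-targeting subunit of protein phosphatase 1. It had 4.33, 7.63 and 6.40 normalized counts in the WT muscles, and 37.7, 67.4 and 51.2 in the Dock3 KO muscles, so that each Dock3 KO muscle lay well above the WT muscles. The means were 6.12 ± 1.67 and 52.1 ± 14.9 (SD, n = 3 each), a ratio of 8.52. Its log2 difference was 2.89 ± 0.449 SE, with an interval of 1.89 to 3.89 (limma adjusted p 0.0131). The 5 fibroblast markers also summed higher in Dock3 KO, at 33926 to 39128 against 29407 to 30371 in WT, with 1 of 5 called higher, Col1a1, and none at 0. They did not move together: only 3 of the 5 had a log2 difference above 0, the median was 0.15 and the lowest was -0.48. The part of these markers in Ppp1r3e was not tested.

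The call of Ppp1r3e was lost without Dock3 KO replicate 2 (2.69, limma adjusted p 0.123), without Dock3 KO replicate 3 (2.88, limma adjusted p 0.0804), and without Dock3 KO replicates 1 and 2 (2.90, limma adjusted p 0.386). It was also lost with log2 Gm42418 as a covariate (2.93, limma adjusted p 0.289) and with the replicate number as a block (2.73, limma adjusted p 0.0992). Per kilobase, Ppp1r3e in Dock3 KO was far below Ppp1r3a and Ppp1r3c, at 26.6 normalized counts against 2257 and 2006.

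Regulators of these genes or enzymes were not called either, 0 of 21, with 2 at an unadjusted p under 0.05 (limma), against 10.5% of all genes. The 3 with the smallest p were Prkag3, Myod1 and Mlxip. Prkag3, the AMP-activated protein kinase subunit of fast fibres, had 2054, 2534 and 2021 in the WT muscles, and 1842, 1408 and 1426 in the Dock3 KO muscles, a log2 difference of -0.50 (limma adjusted p 0.234). Myod1, a myogenic transcription factor, gave -0.54 (limma adjusted p 0.249), and Mlxip, a glucose-sensing transcription factor, 0.25 (limma adjusted p 0.546). These 3, picked by their p, were the only ones of the 21 whose groups did not overlap (14.3%, against 16.2% of all genes).

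Fast glycolytic fibres carry most of this pathway, so their markers were set beside it. None of 10 fast fibre genes passed the test or had an unadjusted p under 0.05 (limma), and all 10 had intervals within 2-fold. Their sum was 1466735 to 1576275 in WT and 1438561 to 1660296 in Dock3 KO. The 3 with the smallest p were Myh1 (0.47), Mylpf (-0.19) and Myh4 (0.19), with limma adjusted p of 0.511 or more. Of 8 genes of oxidative and slow fibres, 0 passed, and their sum was 8582 to 15882 in WT and 12024 to 18137 in Dock3 KO. There the smallest p belonged to Myh2 (0.55), Atp2a2 (0.33) and Myl3 (0.49), with limma adjusted p of 0.4998 or more. The 8 did not move together: only 4 had a log2 difference above 0, the median was 0.15 and the lowest was -0.31. Intervals were wide in that list, within 2-fold for 3 of 8. Summed markers of adipocytes, endothelial cells, red cells and Schwann cells overlapped between the groups.

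The members also differed in which muscle stood lowest. Dock3 KO replicate 3 held the lowest of the 6 values for 14 of 37 members, or 37.8%, beside 16.2% of all genes tested. Among members with a mean of at least 1000 it was lowest for 13 of 27, or 48.1%, beside 18.8% of genes at that level. These 13 were Gpi1, Aldoa, Tpi1, Gapdh, Pgk1, Eno1, Eno3, Pkm, Ldha, Slc16a3, Pygm, Phkg1 and Pgm1. Pfkm and Pgam2 were not among them: their lowest values were those of Dock3 KO replicates 1 and 2. The same muscle had the lowest sum of fast fibre genes and the highest values of Myh1, at 91066, and of Myh2. Dock3 KO replicate 2 was highest for 11 of the 27, or 40.7%, beside 26.7%. The SD of the log2 values was larger in Dock3 KO than in WT for 21 of the 27, or 77.8%, beside 61.0% of genes at that level. These counts describe the muscles and were not tested.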

How the data were processed

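The authors deposited normalized counts per Ensembl gene, treated here as a signal: values that are neither whole numbers nor of fixed sum. The submitters' processing notes name FastQC, Trim Galore 0.4.5, Salmon 0.12.0, DESeq2 1.22.1 and R 3.5.3, and the builds mm10 and GRCm38. The normalization method, annotation and use of strand in counting are not given in the sources used here. A scaling factor moves all genes of a muscle together, so differences depend on it.

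All 54393 identifiers matched GENCODE M21 (GRCm38), which gave symbols, positions and transcript sequences; coordinates are 1-based. Genes with a mean of at least 10 were compared on log2(normalized count + 1) over all 6 muscles with limma 3.58.1 in R 4.3.3 (eBayes with a trend, Benjamini-Hochberg over 16031 genes, threshold 0.05). This scale understates changes of low genes. The p-values measure the spread between these muscles, which may be technical in part; an exact permutation test of 3 against 3 cannot go below 0.1. On simulated data for these 16031 genes, 60 of 100 changes of 1.5 (log2) and 90 of 100 of 3 were called in the right direction, with 9 unchanged genes called. Copies were found with blastn 2.17.0 (identity of 95% or more across 50% or more of the shorter transcript, with 100 or more aligned bases). Levels between genes were compared per kilobase of the longest protein-coding transcript.

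Only 22.6% to 45.8% of low values per muscle lay within 0.02 of whole multiples of the commonest low value, so reads were not recovered and no counting intervals are given. Values in every muscle are given for members past the threshold, members whose groups do not overlap and the highest isozyme of each step; Pfkfb3, Gpi1, Ldhb, Ppp1r3c and the copies were added after their values were seen. In other lists, called genes or else the 3 smallest p are named. The members and lists were chosen with earlier results of these data known.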

Additional observations from a re-analysis of the deposited data

How the results depend on the processing

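No member passed the threshold in the analysis reported or in any alternative except without WT replicate 3, where 1 (Pygl, lower) did, so the count of members called, and of those called lower, ran from 0 to 1 over the settings that leave out 1 muscle. The number of members whose groups do not overlap, 3, was 15 after rescaling to the same total (22.6% of all genes then), 8 after rescaling without Gm42418 and Lars2 (17.1%), 5 after quantile normalization (16.1%), 22 without Dock3 KO replicates 1 and 2, an alternative chosen after seeing the data (54.1%), and 7 to 11 with 1 muscle left out (24.3% to 28.7%). The number with a log2 difference above 0, 16, was 5, 9 and, with log2 Gm42418 as a covariate, 10. The median of the members, -0.04, was -0.31 and -0.14 after the rescalings, -0.13 after quantile normalization, and -0.15 both with the covariate and without Dock3 KO replicates 1 and 2. Apart from the shift of all genes under the rescalings, and the smaller number of muscles where some are left out, the cause was not tested. With the replicate number as a block, 0 members were called, 14 were above 0 and the median was -0.08. Muscles of the same number varied little together: deviations from the group means correlated at 0.0649 for number 1 and 0.00663 for number 3 across 16031 genes. These values cannot tell whether the muscles were paired. The block took the call from Ppp1r3e and changed no other call among the members, Dock3 and Gm1840. edgeR and DESeq2 were not run, since whole reads were not recovered.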

Other observations

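Several pathway genes outside the members, singled out after their values were seen, had groups that do not overlap without passing the test. Such groups were found for 16.2% of all genes. Pfkfb2, the heart form of the bifunctional enzyme that sets fructose 2,6-bisphosphate, had 391, 448 and 361 normalized counts in the WT muscles, and 221, 241 and 276 in the Dock3 KO muscles, a log2 difference of -0.70 ± 0.165 SE (limma adjusted p 0.109). Slc37a4, the glucose 6-phosphate transporter of the endoplasmic reticulum, gave -0.39 (limma adjusted p 0.287). Pck1, which makes phosphoenolpyruvate from oxaloacetate, gave 1.79 (limma adjusted p 0.293), and Ppp1cb, a catalytic subunit of protein phosphatase 1, gave 0.36 (limma adjusted p 0.303).

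Gys2, the liver glycogen synthase, had a mean of 8.88 and was not tested. The WT muscles had 28.5, 20.7 and 4.10 normalized counts, and each of the 3 Dock3 KO muscles is listed at 0. Gm12671, a Gapdh copy on chromosome 4 that matches 1002 bases of it without a difference, was listed at 1741 in Dock3 KO replicate 2 and at 0 in the other 5 muscles.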
